A study of Drosophila melanogaster with 2 samples.

Results

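The genes of the ecdysone receptor and of other nuclear receptors were examined for regions of embryo chromatin recovered with CG11723, an uncharacterized fly protein. These genes were EcR, usp, Eip75B, Eip78C, Hr3, Hr4, Hr39, ftz-f1, Hr38 and Hnf4, 10 of the 13968 protein-coding genes among 18277 annotated genes. A region was assigned to a gene when its summit, the point of highest signal, lay in the gene body or within 500 bp of one of the gene's transcription start sites (TSSs). By this rule 36 of 3869 reproducible regions, and 254 of 30000 regions listed for the pooled replicates, belonged to these genes. The genes were chosen from these same region lists with earlier results known, so every count and signal at them is given as a description and carries no test.

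Regions came from chromatin immunoprecipitation and sequencing (ChIP-seq) with an antibody against GFP. The only group was a stable transgenic line making CG11723 with a GFP tag at its C-terminus, collected as whole embryos of both sexes from 0 to 16 h of age, with chromatin broken by sonication into fragments of 200 to 800 bp. The group had 2 biological replicates, which the labels number 1 and 3. All tissues, and the ages from 0 to 16 h, were mixed, and no untagged or input sample was analysed here. The depth behind the regions is unknown because the lists hold no read numbers.

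Steroid hormone signalling in insects runs through ecdysone, whose active form, 20-hydroxyecdysone, binds a heterodimer of the receptors EcR and Usp on DNA. The bound dimer switches on early genes, several of which encode nuclear receptors themselves (Eip75B, Eip78C, Hr3, Hr4, Hr39), and these in turn time the expression of ftz-f1 and of later genes. The cascade is best known from molting and metamorphosis, and a pulse of the hormone also acts in the middle of embryogenesis, in germ band retraction and head involution. Many of these genes are long and have several start sites that make isoforms with different amino-terminal parts.

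Of the 10 genes, 8 held at least 1 region of the reproducible list, which the submitters derived with the irreproducible discovery rate and which is called the IDR list here. Eip78C and Hr38 held none. Among all coding genes, 19.2% held an IDR region, and among the 1020 coding genes of at least 20 kb the share was 53.0%. Of the 9 receptor genes that long, 7 held one. Eip75B had 8 regions, Hr4 and ftz-f1 had 7 each, Hr3 had 5, EcR had 4, Hr39 and Hnf4 had 2 each, and usp had 1. A count of 7 or more was reached by 22 of the 13968 coding genes (0.158%), and 3 of these were Eip75B, Hr4 and ftz-f1. With overlapping regions merged, ftz-f1 had 6, while Eip75B and Hr4 were unchanged. All 10 genes held at least 1 region of the longer pooled list, against 42.4% of coding genes of all lengths. The pooled share was not computed for long coding genes alone.

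The DNA under these regions is printed for the strongest region of each gene whose sequence could be shown, and for the regions of Eip75B and ftz-f1 that hold a 7-base word counted further on. Each line gives up to 50 bp on each side of the summit, on the gene's own strand from 5′ to 3′, in dm6 coordinates, with the letters read from RefSeq's Release 6 genome. Windows at usp, Eip75B and Hr39 are shorter because transcribed leader sequence was left out. Capitals mark the words GAGAG and ACAGTGG, read on either strand, so that CTCTC and CCACTGT are their complements.
usp, 140 bp upstream of the RA start site, X:2041402-2041460: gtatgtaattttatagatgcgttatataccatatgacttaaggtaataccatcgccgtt
Eip75B, 22 bp upstream of the RC start site, 3L:17999822-17999893: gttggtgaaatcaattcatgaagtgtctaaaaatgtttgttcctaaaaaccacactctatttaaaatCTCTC
Hr39, 7 bp upstream of its start site, 2L:21237193-21237249: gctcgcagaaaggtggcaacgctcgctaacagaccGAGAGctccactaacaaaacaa
Hnf4, 383 bp upstream of the RB start site, 2L:8691542-8691642: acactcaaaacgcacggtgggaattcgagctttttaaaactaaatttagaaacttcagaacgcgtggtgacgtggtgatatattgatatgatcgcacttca
Hr4, intron, X:1947686-1947786: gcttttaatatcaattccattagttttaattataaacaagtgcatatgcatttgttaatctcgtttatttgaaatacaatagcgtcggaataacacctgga
ftz-f1, strongest region, intron, 3L:18789572-18789672: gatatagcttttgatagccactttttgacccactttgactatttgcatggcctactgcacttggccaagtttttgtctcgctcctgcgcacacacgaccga
ftz-f1, next strongest region, intron, 3L:18769361-18769461: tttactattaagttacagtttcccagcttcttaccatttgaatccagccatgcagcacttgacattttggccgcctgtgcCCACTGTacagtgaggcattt
Eip75B, seventh region by signal, intron, 3L:18003383-18003483: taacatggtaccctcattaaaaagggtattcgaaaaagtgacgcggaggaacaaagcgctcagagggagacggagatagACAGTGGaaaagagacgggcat
The lines differ in composition: the window at the Hr4 intron was 28.7% G and C, that of the ftz-f1 intron 47.5%, and the full window at the Hr39 start site 53.5%.

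Most regions at the receptor genes lay inside introns, away from start sites. Of the 36 IDR regions, 34 had their summit in an intron of the gene, 1 in a 3′ untranslated exon and 1 just outside the gene body. The 34 include intron summits near a start site, such as that of usp. The share in introns was not computed for other coding genes, so this count is a description only. Only 6 (16.7%) had a summit within 500 bp of a start site of their gene, compared with 351 of 1242 (28.3%) for the IDR regions at coding genes of at least 20 kb. The 6 include the only region of usp, a gene shorter than 20 kb. Across the IDR list, 50.4% of regions lay that close to some annotated start site. Counted by gene, 4 of the 10 (usp, Eip75B, Hr39 and Hnf4) had an IDR summit at a start site, against 15.0% of coding genes. Among the 9 long receptor genes this was 3, against 27.5% of coding genes of at least 20 kb.

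**Figure D1:**
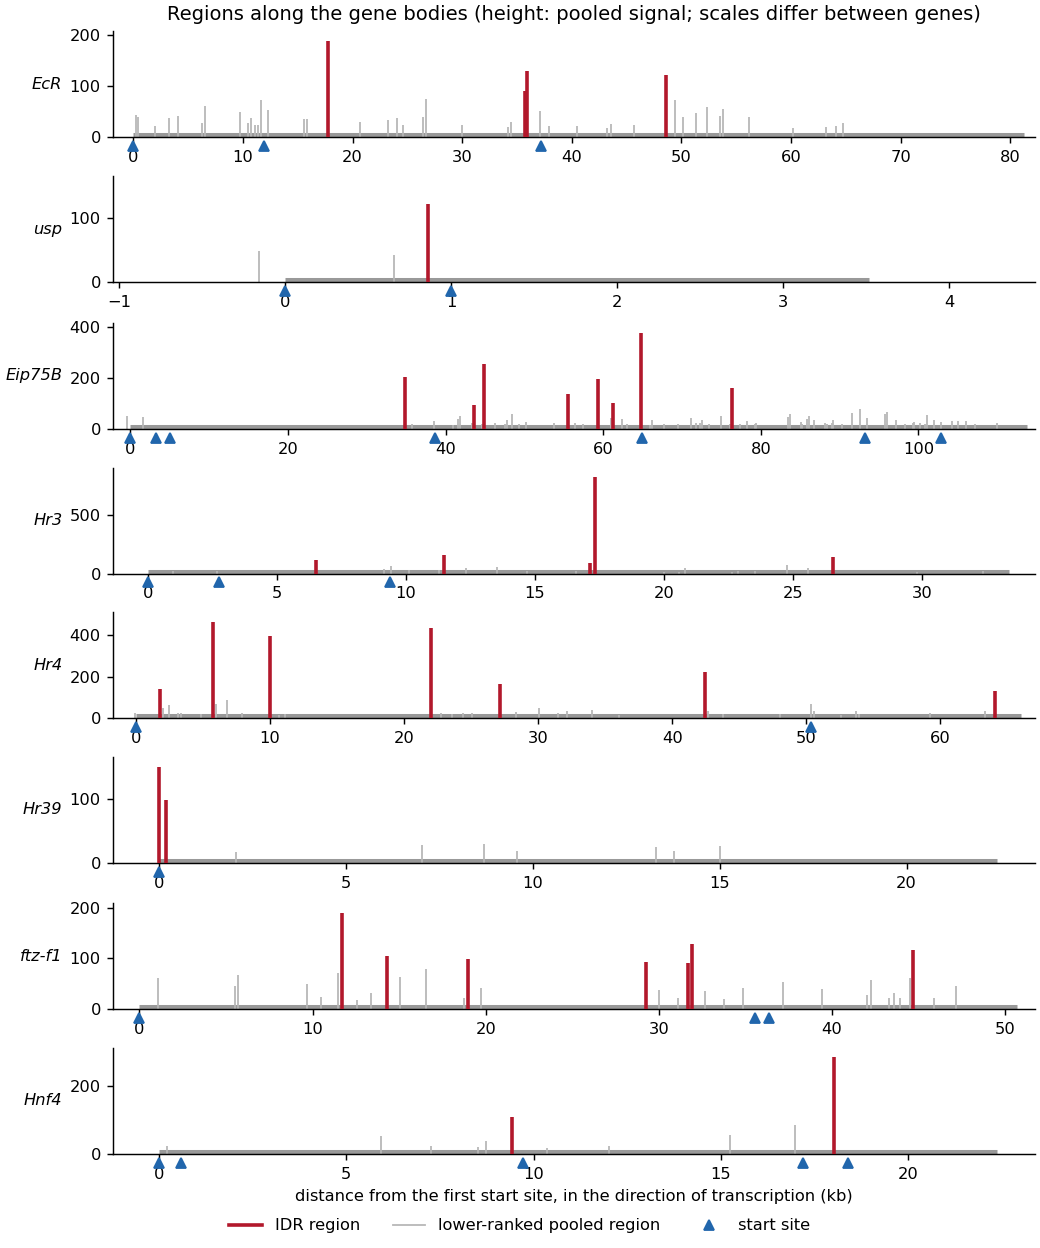
Maps of the 8 receptor genes with an IDR region, each drawn from its first start site in the direction of transcription (x axis, kb), with the pooled signal of each region as the height of its line on a scale of its own per gene. Red lines are IDR regions, thin grey lines are lower-ranked regions of the pooled list and triangles are annotated start sites: at Hr4 and ftz-f1 the red lines are spread along the body and away from the triangles, and at Hr39 both stand at the start site.

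The receptor genes carry 30 separate start sites, counting sites within 100 bp of each other as 1. An IDR summit lay within 500 bp of 5 of the 30 (16.7%) and a summit of the pooled list within 500 bp of 22 (73.3%). For all coding genes of at least 20 kb the same shares were 341 of 2369 (14.4%) and 1279 (54.0%). The 30 sites include the 2 of usp, which is shorter than 20 kb. The 5 sites were the RA start of usp, the RC start of Eip75B, the single start of Hr39, and the RB and RD starts of Hnf4. None of the start sites of EcR, Hr3, Hr4 or ftz-f1 had one.

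EcR and usp encode the subunits of the ecdysone receptor itself, and none of the regions at them was among the 500 strongest of the pooled list. The signal is the peak caller's measure of enrichment, as the authors deposited it, on a scale that is not stated, so it is used only to order regions within a list, with rank 1 as the strongest. EcR lies at 2R:6087873-6169087 on the minus strand (81.2 kb) and makes isoforms that differ in their amino-terminal parts from 3 separate start sites. Its strongest region, 2R:6151107-6151546, had a pooled signal of 189 (rank 1262) and stood in an intron 5.80 kb downstream of the RD and RE starts. It ranked 1281 in replicate 1 (signal 109) and 1248 in replicate 3 (signal 90.3), so both replicates placed it alike.

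A pair of overlapping EcR regions, 2R:6132921-6133360 (signal 131, rank 2217) and 2R:6133164-6133603 (signal 91.4, rank 3711), had summits 243 bp apart, 1.22 and 1.46 kb upstream of the RB and RC starts. The first ranked 2191 in replicate 1 and 2637 in replicate 3, the second 3113 and 7048. The remaining EcR region, 2R:6120282-6120721 (signal 123), ranked 1677 in replicate 1 and 5202 in replicate 3. All 4 summits of EcR were richer in G and C than the DNA 500 bp toward lower coordinates. The difference averaged 14.6 percentage points (SE 3.93, n = 4 regions). Regions of the same gene are not replicates and the pair overlaps, so this SE describes spread only. The 3 start sites had only lower-ranked pooled summits within 500 bp, with ranks of 7899, 4949 and 9716.

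EcR also contains tRNA genes within its introns, and lower-ranked regions fell on them. A region at tRNA:Lys-CTT-1-1 had a pooled signal of 76.0 (rank 4747), ranked 2328 in replicate 1 and was absent from the replicate 3 list. Another, at tRNA:Asn-GTT-1-6, had a signal of 60.8 (rank 6332), ranked 4382 in replicate 1 and was again absent from replicate 3. Other tRNA genes start within 500 bp of both summits (tRNA:Arg-ACG-1-1 at the first, tRNA:Asn-GTT-1-4, tRNA:Asn-GTT-1-5 and tRNA:Lys-CTT-1-2 at the second), so neither can be assigned to a single gene. Neither was in the IDR list. Other lower-ranked EcR regions also lay near tRNA start sites, and some of these did overlap a replicate 3 region. Of the 42 lower-ranked regions at EcR, 15 were absent from the replicate 3 list, as were 40.3% of all lower-ranked regions.

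The usp gene, which encodes the RXR homolog that pairs with EcR, is short (3.51 kb, X:2038798-2042311, minus strand) and had a single IDR region, X:2041232-2041671. Its pooled signal was 122 (rank 2441), and its summit lay 140 bp upstream of the RA start. The replicates placed it far apart, at rank 1425 in replicate 3 (signal 84.1) and at 6571 in replicate 1 (signal 41.3). The same summit also lay in the body of the overlapping gene Actn, which encodes alpha-actinin, and within 500 bp of a start site of CG4313, so the lists cannot assign it to usp alone. Of the 1609 other coding genes within 20% of the length of usp, 322 held at least 1 IDR region.

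Among the receptors that ecdysone induces early, Eip75B held the most regions, and its strongest one stood at a start site. Eip75B encodes a heme-binding receptor known for repressing the activity of Hr3, and it extends over 114 kb (3L:17950953-18064696, minus strand). The strongest region, 3L:17999596-18000001, had a pooled signal of 377 (rank 339), ranked 320 in replicate 1 (signal 219) and 443 in replicate 3 (signal 157), and peaked 22 bp upstream of the RC start. The replicates thus put it near the same place among their 30000 regions.

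The next strongest Eip75B regions lay in introns. The region at 3L:18019689-18019945 had a signal of 255 (rank 710), with ranks of 454 in replicate 1 and 2007 in replicate 3. At 3L:18029677-18029909 the signal was 203 (rank 1117), with ranks of 606 and 3164. The other 5 had pooled signals of 95.3 to 194. In 7 of the 8 regions the rank was nearer the top in replicate 1 than in replicate 3, and 5 of the 8 were among the 3869 strongest of both.

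The 8 summits of Eip75B spanned 41.4 kb, 36.4% of the gene body. Of its 7 start sites, only RC had an IDR summit within 500 bp. The most upstream starts, RF, RE and RB, were 34.9, 31.7 and 29.8 kb from the nearest IDR summit. RE and RB had no pooled summit within 500 bp either, and the one near RF ranked 8239. Only 7 coding genes had more IDR regions than Eip75B, and of the 69 other coding genes within 20% of its length, 2 had as many or more (median 2).

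Hr3 encodes the ROR-type receptor that activates ftz-f1, and it held the strongest region of all 10 genes. The gene occupies 2R:10203995-10237348 on the minus strand (33.4 kb). The region 2R:10219863-10220292, in an intron 7.93 kb downstream of the RA, RF and RH starts, had a pooled signal of 818 and rank 32 of 30000. It ranked 63 in replicate 1 (signal 377) and 19 in replicate 3 (signal 452), high in both. A lesser summit listed for the same interval, 207 bp away, had a signal of 92.1 (rank 3666), and in replicate 3 it overlapped the same region as the main summit.

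The other Hr3 regions were 2R:10225660-10226099 (signal 160), 2R:10210752-10210878 (signal 142) and 2R:10230600-10231039 (signal 118). All 5 Hr3 regions overlapped a region among the 3869 strongest of each replicate, but in replicate 3 the lesser summit shared the region of the main summit. Each of the 5 lay 2.08 kb or farther from the nearest Hr3 start site. A further IDR region (signal 112, rank 2740), 865 bp from the RD start, fell outside the assignment rule. In the annotation used here the coding genes CG12912 (29.2 kb) and CG46321 (22.5 kb) overlap Hr3 on the same strand, and regions in the shared span cannot be told apart by gene. Per kilobase, Hr3 was the most densely covered of the 9 long receptor genes, at 1.5 IDR regions per 10 kb, rank 22 among the 1020 long coding genes.

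Hr4 encodes a receptor known as a repressor within the early-late part of the cascade, and 3 of its 7 regions were among the 500 strongest of the pooled list. The gene lies at X:1941940-2007956 on the plus strand (66.0 kb). The region X:1947584-1947891 had a signal of 465 (rank 206), with ranks of 141 in replicate 1 (signal 300) and 431 in replicate 3 (signal 160). X:1963791-1964084 had a signal of 435 (rank 253), with ranks of 329 and 209. X:1951774-1952061 had a signal of 398 (rank 300), with ranks of 290 and 385. These 3 stood near the top in each replicate.

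The other 4 Hr4 regions had signals of 134 to 224, and the weakest, X:2005932-2006109, was the one in a 3′ untranslated exon. That region was the only one of the 7 outside the 3869 strongest of replicate 3, at rank 4332. The 7 summits spanned 62.3 kb, 94.3% of the gene. Neither Hr4 start site had one within 500 bp: the nearest of the 7 were 1.83 and 7.94 kb away. Of the 150 other coding genes of like length, 4 had as many or more.

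Hr39, which encodes a receptor related to Ftz-F1, had both of its IDR regions at the start site of its 22.4 kb (2L:21237250-21259675, plus strand), and its 7 lower-ranked regions lay within the gene, none within 500 bp of the start. The regions 2L:21237023-21237462 (signal 150, rank 1821) and 2L:21237224-21237663 (signal 97.8, rank 3370) overlap, and their summits lie 7 bp upstream and 194 bp downstream of the start site. In replicate 1 they ranked 779 (signal 142) and 1477. In replicate 3 both overlapped a single region at rank 7755 (signal 23.1), far below the place of either in replicate 1.

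Eip78C, an early receptor gene of the same family as Eip75B, had no IDR region over 39.9 kb (3L:21226609-21266503, plus strand). It held 11 lower-ranked pooled regions. The strongest of them had a signal of 60.6 (rank 6375) and ranked 9888 in replicate 1 and 3477 in replicate 3, which puts it among the strongest of replicate 3 alone. Of the 281 other coding genes of like length, 144 held an IDR region.

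The ftz-f1 gene, which encodes the competence factor that readies tissues for the next hormone pulse, had 7 regions, none among the 500 strongest of the pooled list. It lies at 3L:18750607-18801309 on the minus strand (50.7 kb). The strongest region, 3L:18789553-18789668, had a signal of 190 (rank 1250) and ranked 1406 in replicate 1 (signal 104) and 1594 in replicate 3 (signal 77.8). The next, 3L:18769191-18769630, had a signal of 128 (rank 2277), with ranks of 3633 and 1743. The other 5 had signals of 91.7 to 116, near the lower end of the IDR list, which stopped at 88.8. The weakest of them, 3L:18769405-18769844, overlaps 3L:18769191-18769630, with summits 214 bp apart.

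Only the strongest ftz-f1 region and the next were among the 3869 strongest of both replicates. A further 2 were among the strongest of replicate 3 only, and 3 of neither. The least reproducible, 3L:18771812-18772251, had a pooled signal of 93.8 and ranked 14741 in replicate 1 and 7989 in replicate 3. None of the 3 start sites had any pooled summit within 500 bp, and the nearest IDR summits were 3.67 to 11.7 kb away. Of the 230 other coding genes of like length, 2 had as many or more regions. The lncRNA gene lncRNA:CR45939 overlaps the upstream part of ftz-f1 on the same strand and holds 3 of the 7 summits.

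Hnf4 and Hr38 stand apart from the main cascade. Hnf4 encodes a fatty acid sensor that drives lipid breakdown, and Hr38 the NR4A receptor, which can also pair with Usp. Hnf4 (2L:8687226-8709611, minus strand, 22.4 kb) had a region at 2L:8691479-8691761 with a signal of 285 (rank 595), 383 bp upstream of the RB start, which ranked 470 in replicate 1 (signal 184) and 990 in replicate 3 (signal 103). Its other region, 2L:8699964-8700403 (signal 108, rank 2895), 279 bp upstream of the RD start, ranked 1596 in replicate 1 and 16418 in replicate 3, the largest difference in rank between replicates among the 36. Hr38 (2L:20683462-20714588, minus strand, 31.1 kb) had 2 pooled regions and no IDR region. The stronger had a signal of 57.9 (rank 6761), 45 bp upstream of the gene's start site, and ranked 4120 in replicate 1 and 5802 in replicate 3. The IDR region nearest to the Hr38 start site (signal 91.4, rank 3707) lay 1.71 kb away and fell outside the assignment rule.

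**Figure D2:**
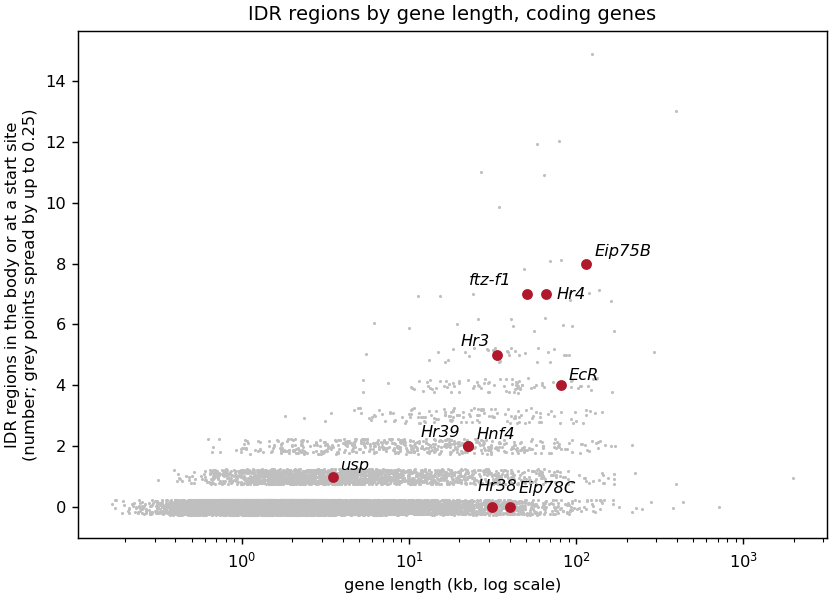
Number of IDR regions (y axis) against gene length (x axis, kb, log scale) for the 13968 coding genes, with the 10 receptor genes in red. Eip75B, Hr4, ftz-f1 and Hr3 lie above most genes of their length, with 8, 7, 7 and 5 regions, and Hr38 and Eip78C lie at 0.

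The receptor genes are longer than most, so the counts are also given per length. The 9 receptor genes of at least 20 kb held 0.759 IDR regions per 10 kb of gene, and all 1020 coding genes of that length held 0.239. In the pooled list the densities were 5.45 and 2.34 per 10 kb. Of the other coding genes of like length, 12 of 299 had as many IDR regions as Hr3 or more. For EcR this was 19 of 105, for Hr39 92 of 393 and for Hnf4 91 of 393. The 7 long receptor genes with an IDR region ranked 22 (Hr3), 34 (ftz-f1), 68 (Hr4), 104 (Hnf4), 105 (Hr39), 157 (Eip75B) and 217 (EcR) of 1020 by density. Since the genes were chosen for their regions, no more is read from these ranks. The highest counts outside the receptors were 15 at CG1677, 13 at kirre, 12 each at sbb and shn, and 11 at ush.

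The strength of the regions at the receptor genes is given beside that of the list. Their pooled signal ranged from 91.4 to 818 with a median of 140 (quartiles 107 and 196), and the median of the IDR list was 144 (88.8 to 1650). For IDR regions away from any start site the median was 134. Among the 36, 16 (44.4%) were among the 1934 strongest of the 3869 IDR regions. The 500 strongest IDR regions, 12.9% of that list, included 5 of the 36 (13.9%): 3 at Hr4 and 1 each at Hr3 and Eip75B. Of the IDR regions away from any start site, 42.9% were among these 1934 and 7.66% among these 500. The weakest inside the list were at Hr3 (92.1), ftz-f1 (91.7) and EcR (91.4). Just outside it were lower-ranked regions at Hr4 (88.4, rank 3893), Hnf4 (86.0, rank 4020, 226 bp from the RF start) and ftz-f1 (79.9, rank 4445).

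**Figure D3:**
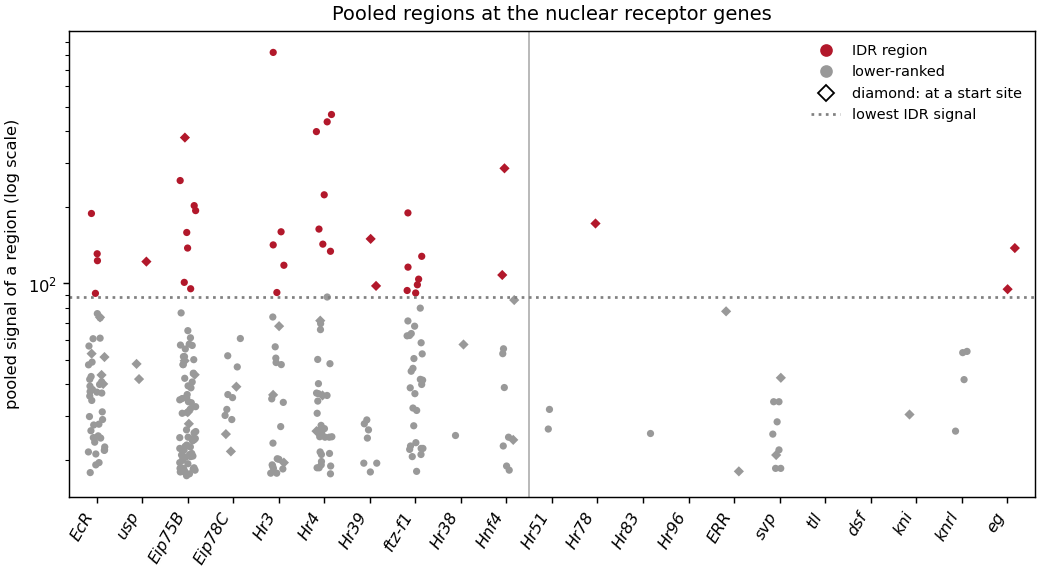
Pooled signal (log scale) of every region of the pooled list at each nuclear receptor gene, with the 10 genes described here left of the vertical line and the 11 others right of it. Red points are IDR regions, grey points lower-ranked ones and diamonds lie within 500 bp of a start site: the intronic region of Hr3 at 818 is the strongest, and no point of Eip78C or Hr38 reaches the dotted line at the lowest IDR signal, 88.8.

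The replicates gave the regions at the receptor genes unequal ranks. Of the 36, 21 (58.3%, exact binomial 95% interval 40.8 to 74.5) were among the 3869 strongest regions of both replicates, as were 2173 of all 3869 IDR regions (56.2%, 54.6 to 57.7). The intervals cover counting error only, and overlapping regions at 1 gene are not independent. The 21 include both summits of the main Hr3 interval, which overlapped the same replicate 3 region. A further 9 (25.0%) were among the strongest of replicate 1 only and 3 (8.33%) of replicate 3 only, while the IDR list had 21.1% and 19.2%. The rank was nearer the top in replicate 1 for 23 regions and in replicate 3 for 13, whereas the whole list divided into 1952 and 1914.

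By gene, 7 of the 10 had a region among the strongest of replicate 1, against 18.1% of coding genes, and 8 of the 10 among the strongest of replicate 3, against 21.8%. Those shares cover coding genes of all lengths, whereas 9 of the 10 receptor genes are at least 20 kb long. In the IDR list the share was 19.2% over all coding genes and 53.0% over those that long. The genes differed in which replicate held their regions. Eip75B, EcR, Hr39 and Hnf4 ranked mostly higher in replicate 1, ftz-f1 and usp mostly higher in replicate 3, and Hr3 and Hr4 were divided. The median G and C content at the summit was 40.6% (22.8 to 53.5) for the 23 regions ranked higher in replicate 1. For the 13 ranked higher in replicate 3 it was 37.6% (27.7 to 47.5), a range that lies within the first. Over the IDR list the medians were 37.6% and 33.7%. The part of base composition in the ranks was not tested. Among the 218 lower-ranked regions at these genes, 46 (21.1%) were absent from the replicate 1 list and 89 (40.8%) from the replicate 3 list, close to the 24.2% and 40.3% of all lower-ranked regions.

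**Figure D4:**
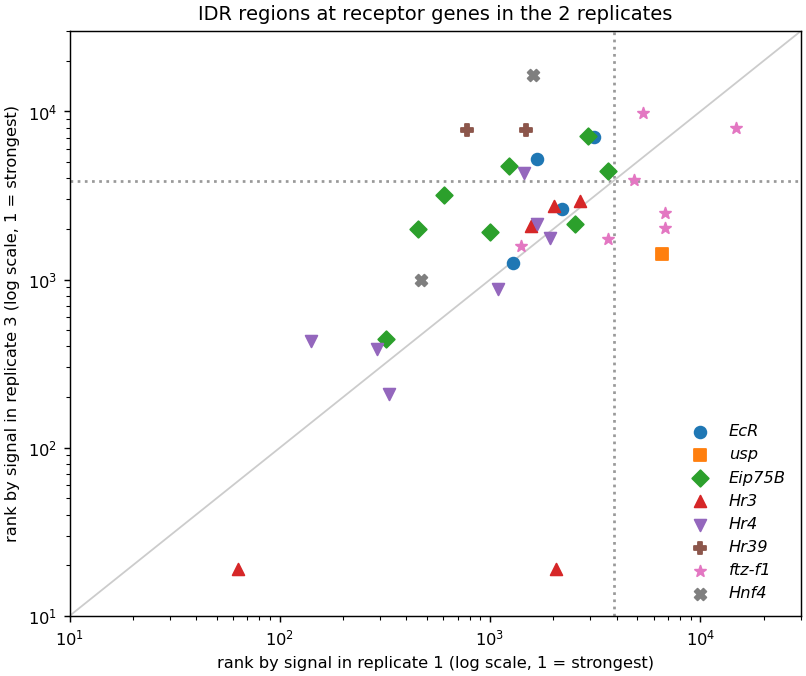
Rank of each of the 36 IDR regions in replicate 1 (x axis) and replicate 3 (y axis), both on log scales with 1 as the strongest, by gene. Dotted lines mark rank 3869: the main Hr3 region lies at the lower left (63 and 19), Hr39 and a Hnf4 region lie above the line for replicate 3, and most ftz-f1 regions and usp lie right of the line for replicate 1.

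At the summits, G and C content averaged 39.2% over the 36 regions. In windows of the same width 500 bp toward lower coordinates it averaged 42.1%. The difference was -2.94 percentage points (SE 2.84, n = 36 regions), that of the IDR list was -6.07, and the value at the receptor genes turned to 2.86 when only replicate 1 was used. It ran in opposite directions among the genes: EcR summits were richer than their flanks, and those of Hr3 poorer, by -14.1 percentage points (SE 6.03, n = 5 regions). These SEs describe the spread among regions only, since regions of the same gene are not independent and some overlap. With the flank on the side of higher coordinates the difference over the 36 was -2.39, and single genes were not examined that way.

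The half-site that nuclear receptors recognize, AGGTCA, was absent from all 36 summit windows (50 bp on each side) when both strands were read, and 1.94% of all IDR windows held it. The longer CAAGGTCA, which contains AGGTCA, and GGTCANTGA, the core of an ecdysone response element, were also absent from the 36, and 0.103% and 0.155% of all IDR windows held them. With 0 of 36, the upper exact 95% limit was 9.74%, so these shares cannot be told apart. TATCGATA, the DNA replication-related element, and CAGGTA, the word bound by Zelda, were absent as well, against 1.76% and 1.94% of the list. TCGATA, contained in TATCGATA, occurred in 1 window (2.78%), the third strongest of Eip75B, against 6.41% of the list. Among the IDR regions away from any start site, the class that holds 30 of the 36, TCGATA stood in 3.75% of windows and TATCGATA in 0.365%.

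GAGAG, the word bound by GAGA factor, occurred in 8 windows (22.2%, exact 95% interval 10.1 to 39.2) and in 11.9% of IDR windows. Those at EcR, 1.2 to 1.5 kb upstream of the RB and RC starts, held 3 and 2 copies, with overlapping matches each counted. The strongest Eip75B window and both Hr39 windows held GAGAG too. ACAGTGG, a word chosen because earlier results of these data showed it, occurred in 3 windows (8.33%, interval 1.75 to 22.5) and in 3.23% of the list. These were the main Hr3 region, the second of ftz-f1 and the seventh of Eip75B by signal, of which the latter pair are printed above. Both intervals include the share of the list, so the shares cannot be told apart. The EcR pair of regions overlaps, as does that of Hr39, so the regions with GAGAG are not independent, though the windows of each pair share no base. A match is only the presence of the letters in the window.

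Outside the 10 genes, counts are read against the 19.2% of coding genes with an IDR region and the 42.4% with a pooled region. Of the 11 other receptor genes, most of them short, 2 (18.2%) held an IDR region, near that share: Hr78, with a signal of 173 (rank 1467) 7 bp from a start site and also at a start site of asRNA:CR43933, and eg, with 138 and 94.9 upstream of its start. The remaining 9 (Hr51, Hr83, Hr96, ERR, svp, tll, dsf, kni and knrl) held none. Over all 21 receptor genes, 10 held an IDR region, with 39 regions in all. Of 51 other genes of ecdysone synthesis, transport and response, 17 (33.3%) held at least 1, with 34 regions in all.

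By role, none of the 9 hormone synthesis genes held an IDR region, and 4 of them held a pooled region, near the share of all coding genes. Among the receptor's cofactors and chaperones, 7 of 10 (70.0%) held an IDR region, with best signals of 626 at the chaperone gene Hsp83, 459 at the corepressor gene Smr and 195 at Nup98-96, which encodes nuclear pore proteins and whose summit also lay at a start site of mbc. The coactivator gene tai held 6 regions and Smr held 5, both long genes. Of the 9 other early genes, 4 (44.4%) held a region, with best signals of 237 at Eip63E, 234 at Eip74EF and 206 at Eip63F-1. Of the 3 uptake, secretion and turnover genes, 2 did: Oatp74D (148), which encodes the ecdysone importer, and Atet (127). Of 4 regulators of synthesis, mld (89.1) was the only one, and of 16 late and glue genes, 3 (18.8%) did: ImpL2 (504), Ldh (391, also at a start site of lncRNA:CR44522) and Sgs3 (93.8). These lists differ in gene length, and their shares were not compared by test.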

How the data were processed

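Region lists in narrowPeak format, on dm6, were used as the authors deposited them: 1 for each of the 2 replicates, 1 for the pooled replicates (30000 regions each) and the IDR list (3869). Per the file notes, regions were called against a control, and the IDR list was made from the other 3. The deposited signal score of each region comes from the caller on a scale that is not stated. The aligner, the caller and the IDR cutoff are not stated in any source used here, depth is unknown, and the dm3 lists are not used here.

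Gene models were from Ensembl release 115 (BDGP6.54) on the major arms, and sequence from the RefSeq Release 6 assembly, whose arm lengths fit every region. Summits, counted from 1, were joined to gene bodies or to start sites within 500 bp. A replicate region matched by an overlap of at least 1 bp. The "strongest" of a replicate were its 3869 regions of highest signal. G and C content and words, on both strands, were counted within 50 bp of the summit and, for composition, in an equal window 500 bp toward lower coordinates. Like length meant within 20%. Intervals are exact binomial (Clopper-Pearson) at 95%. Scripts ran in Python 3.11.15 with pandas 2.3.3, numpy 2.4.6 and scipy 1.17.1, and region assignment was tested on simulated data.

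The receptor genes, pathway lists and words were chosen with earlier results of these data known. No test was run: there is 1 group, no control sample, and regions are not replicates. Named are all listed receptor genes, up to 3 pathway genes per role by signal, the 5 other coding genes with the most IDR regions, and genes with a start site at a named summit. Genes named outside this rule (tai, the overlapping genes and the tRNA genes in EcR) were chosen after their values were seen. RefSeq synonyms placed 7 pathway genes whose names the annotation lacks, and 1 name was not found. Alternatives changed the start-site window, the point used for a region, the length of the list, the merging of overlapping regions, the word window, the flank and the replicates used.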

Additional observations from a re-analysis of the deposited data

How the results depend on the processing

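No paired analysis was possible because there is 1 group. With only the 1934 strongest regions of the IDR list, the regions at the receptor genes fell from 36 to 16, start sites with a summit from 5 to 3, and the median signal rose from 140 to 214. Start sites with a summit numbered 3 with a window of 200 bp and 8 with 1000 bp. Leaving out a replicate, by taking the 3869 strongest regions of the other, gave 7 to 8 genes with a region, 30 to 36 regions, and a median signal of 68.0 to 95.5 on each replicate's own scale. In the same way the G and C difference was -3.83 to 2.86 percentage points, reversed with replicate 1 alone, TCGATA stood in 1 to 2 windows, GAGAG in 5 to 8 and ACAGTGG in 1 to 3. Without replicate 1, Hr39 had 0 regions, Eip75B 5 and Eip78C 1, and without replicate 3, usp had 0 and ftz-f1 3. With the 1934 strongest regions of each replicate, 11 in place of 21 were shared by both replicates. Windows of 100 bp on each side of the summit held TCGATA in 3 and ACAGTGG in 5. The cause of these changes was not tested, other than that shorter lists and narrower windows hold fewer regions by construction. Merging overlapping regions left 32 regions, with 3 at EcR, 4 at Hr3, 6 at ftz-f1 and 1 at Hr39, and the other genes unchanged. The G and C difference was -4.68 with 25 bp on each side and -1.16 with 100 bp. With a reciprocal overlap of 50%, 16 in place of 21 were shared by both replicates. Depth is unknown, so a gene without a region here may have one below these lists.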
